A study of Mus musculus with 4 samples.

Results

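The response of macrophages to the cytokine IL-4 in the absence of the transcription factor Stat6 was read from 2 of the 4 arrays of the study. Both arrays held RNA of bone marrow-derived macrophages from 4get/Stat6-/- mice, cultured in medium or with IL-4, and they were chosen by their titles alone. The other 2 arrays held BALB/c wild-type macrophages under the same culture conditions and are used here only where the Stat6-/- values need a measure of size. In all 4 groups, bone marrow cells were grown for 7 days with 10% supernatant of the L929 fibroblast line as the source of M-CSF, detached with 5 mM EDTA, replated for 24 h with or without IL-4, and sorted for the macrophage surface protein that Adgre1 encodes. The 4get allele is a reporter of Il4 transcription, and the labels name it for the Stat6-/- mice only, so that Stat6 loss is not the only labelled difference between the genotypes. The IL-4 dose is written as 10 µg/mL in one place of the labels and 10 mg/mL in another. The age of the mice and the number pooled per array were not given in the sources used here.

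IL-4 acts through a receptor whose alpha chain, Il4ra, pairs with the common gamma chain or with Il13ra1. Janus kinases bound to the receptor phosphorylate Stat6, which enters the nucleus and switches on the genes of alternative activation, such as Arg1 and Retnla. The same receptor also recruits the adaptor Irs2, which feeds the PI3K and Akt kinases, so that a signalling route past Stat6 exists in principle.

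Values are log2 RMA signals, 1 per probeset and array, and 19938 genes were each represented by 1 probeset. A gene could be called where the higher of both arrays reached a floor of 2.52, the median signal of all probesets with 1 gene symbol. This held for 10410 genes in Stat6-/- cells. A gene is said to have risen or fallen where the difference, IL-4 minus medium, was at least 2-fold, and a lower bar of 1.5-fold is named where it is used. With 1 array per group no difference has a replicate check, no test between groups was possible, and p-values are not given.

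On the Stat6-/- arrays Stat6 read 4.54 without and 4.25 with the cytokine, against 7.34 and 6.68 in wild type. Of 17 macrophage markers, 16 reached the floor in Stat6-/- medium and 15 with IL-4, and the log2 of their summed signal was 13.68 on both arrays. Cd3d, Cd79a, Ly6g, Mcpt8, Fcer1a and Ncr1 were all under the floor, at 1.87 or less. They are single markers of T cells, B cells, neutrophils, basophils, mast cells and NK cells, and other markers of these cells did reach it. Il4 itself was at 1.67 and 1.65. The markers of other cells that did reach it included Cd28 (6.43 in medium, -0.44 with IL-4), Blnk (6.79 and 6.88) and Cd4 (4.94 and 5.13). In medium and with IL-4, 3 and 2 of 7 T cell markers reached the floor, 3 and 3 of 7 B cell, 3 and 2 of 13 neutrophil, 1 and 3 of 10 basophil and mast cell, 2 and 2 of 5 eosinophil, 2 and 2 of 8 dendritic cell, 0 and 2 of 7 NK cell, 4 and 4 of 10 fibroblast and 0 and 0 of 4 erythroid markers. The NK cell markers that reached it with IL-4 were Klrk1 (2.50 and 2.88) and Prf1 (2.35 and 2.59), both close to it. Of the macrophage markers, Timd4 went from 2.92 to under the floor, at least 1.32-fold. In RNA of sorted cells, fewer cells of a type and less RNA per cell cannot be told apart.

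Over genes with a symbol, Stat6-/- macrophages changed little with IL-4. Of the 10410 genes, 37 passed the 2-fold rule (0.355%), 25 of them higher (0.24%) and 12 lower (0.115%). In wild type 1001 of 10282 passed (9.74%), 304 higher (2.96%) and 697 lower (6.78%). The standard deviation of the difference over genes was 0.30 in Stat6-/- and 0.65 in wild type, and 61.4% of genes lay within 0.25 of no difference in Stat6-/- against 36.6% in wild type. At 1.5-fold, 596 genes were called in Stat6-/- (5.73%), 306 higher (2.94%) and 290 lower (2.79%), which is a nearly even split around a median of -0.05. The counts of gene lists at 1.5-fold given below are to be read beside these shares.

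The spread of the Stat6-/- differences hardly depended on how strongly a gene was expressed. It was 0.31 for genes whose higher signal lay under 4, 0.31 from 4 to 6, 0.27 from 6 to 8 and 0.29 at 8 or more. In wild type the spread went from 0.44 in the lowest of these classes to 1.02 in the highest. A second gauge came from genes read by 2 probesets above the floor. Over 444 such genes the 2 differences correlated with r = 0.41 (Spearman 0.42) in Stat6-/- cells, and over 464 genes with r = 0.77 (Spearman 0.72) in wild type. These are correlations across genes within the same arrays and carry no test. Where at least 1 of the 2 probesets passed 1.5-fold, both did in the same direction for 10 of 60 genes in Stat6-/- and for 102 of 204 in wild type. A single difference of 1.5-fold in Stat6-/- cells was thus often not repeated by another probeset of its gene.

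**Figure D1:**
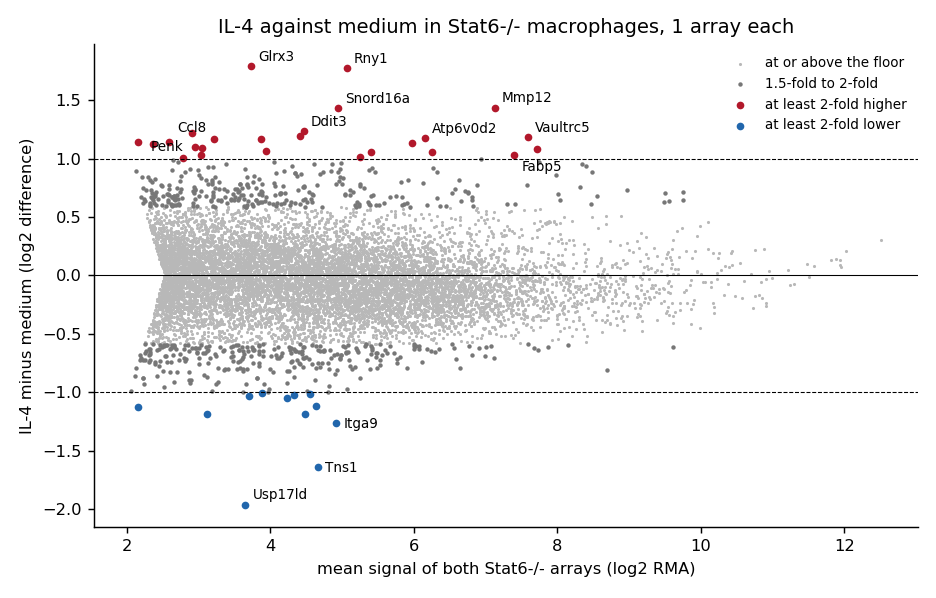
IL-4 minus medium in Stat6-/- macrophages (vertical axis, log2 difference) against the mean signal of both arrays (horizontal axis, log2 RMA), for the 10410 genes at or above the floor. Red and blue points are the 25 genes that rose and the 12 that fell at least 2-fold (dashed lines), dark grey points those past 1.5-fold only, and most genes form a band of even width.

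Several genes that mark the wild-type IL-4 response did not pass the rule. In Stat6-/- cells, medium first, Retnla, a secreted resistin-like protein, gave 1.32 and 1.08, and Arg1, the arginase of macrophages, gave 1.63 and 1.69, all under the floor. The lectin Mgl2 was above it at 3.69 and 3.85, where wild type went from 2.26 to 7.63. The chemokine Ccl24 was at 5.00 and 4.75, where the wild-type difference was 3.88. The vascular receptor Flt1 was at 2.57 on both Stat6-/- arrays. The signalling inhibitors Socs2 (1.71 and 2.10) and Cish (1.98 and 2.35) stayed under the floor, and Socs1 was at 3.22 and 2.97. In the other direction, Cd28, Ifit3 and Slc40a1, an iron exporter, which fell in wild type, differed by -0.44, -0.05 and -0.35. Other large wild-type falls did recur in Stat6-/-: Itga9 passed the rule (-1.26), and Clmp (-0.79) and Adgre4 (-0.69) passed 1.5-fold.

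Genes called in wild type nevertheless leaned the same way in Stat6-/- cells. Of the 304 that rose in wild type, 254 reached the floor in Stat6-/-, and these had a median difference of 0.17, with 64.6% positive against 43.3% of all genes. Of the 697 that fell in wild type, 688 reached it, with a median of -0.20 and 20.5% positive. The wild-type medians of the full sets were 1.31 and -1.28. At 1.5-fold, 37 of the 254 rose in Stat6-/- and 8 fell, and 12 of the 688 rose and 43 fell. At 2-fold, 6 of the 254 rose in Stat6-/- and 1 fell, and 0 of the 688 rose and 4 fell. Of all genes, 0.24% rose and 0.115% fell at 2-fold. The 2 comparisons share no array. Short genes and long genes also differed the same way in both genotypes, as described further on, and the part of this in the shared lean was not tested.

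RNA of 2 receptor chains was above the floor. Il4ra gave 6.71 without IL-4 and 6.36 with it, Il13ra1 4.99 and 4.43. The common gamma chain, Il2rg, was not analysed here, since no probeset used carries its name. The kinase Jak1 was at 8.21 in medium and differed by -0.42, and Tyk2 was at 4.65 and 4.25. Of 16 genes of the IL-4 receptor and STAT pathway above the floor, 0 passed 1.5-fold in Stat6-/-, 2 had a positive difference, Socs3 and Ptpn1, and the median was -0.21. In wild type Il4ra went from 6.44 to 4.87. The branch from Irs2 through PI3K and Akt to mTOR had 24 genes above the floor, of which 2 rose at least 1.5-fold and 0 fell, with a median of -0.15. Those were Pik3r2, a regulatory PI3K subunit (3.78 and 4.48), and Rictor, a part of mTOR complex 2 (3.37 and 4.01). Irs2 was at 3.43 and 3.84. Of 20 FoxO factors and targets, which Akt restrains, Insr, the insulin receptor (-0.79), and Txnip, an inhibitor of thioredoxin (-0.61), fell at least 1.5-fold and Rictor, which is in both lists, was higher. The FoxO list median was -0.14, and Foxo1 and Foxo4 were lower by less than 1.5-fold, at -0.51 and -0.52. Of the 20, 8 had a positive difference. In wild type 13 of the 20 fell at least 1.5-fold and 0 rose, with a median of -0.80.

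**Figure D2:**
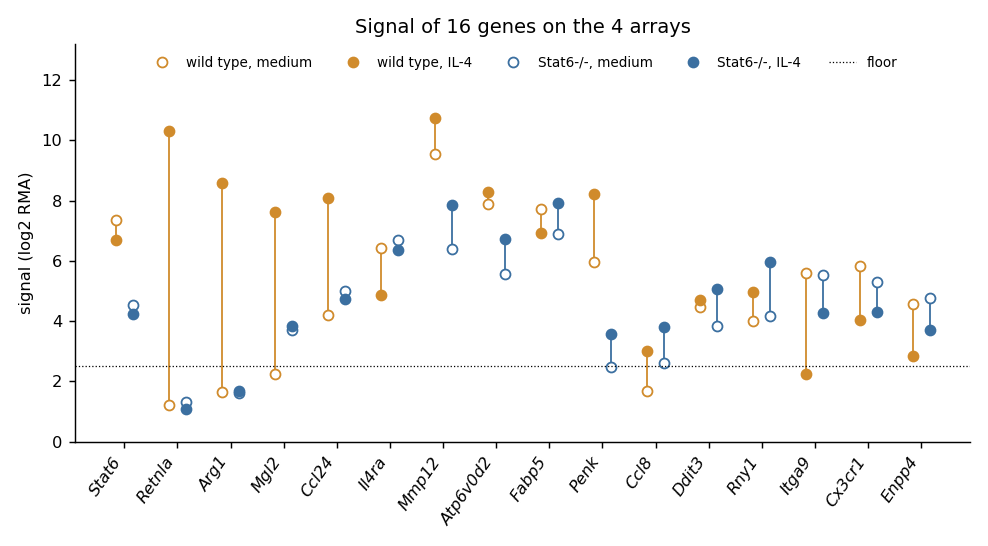
Signal (log2 RMA) of 16 genes on the 4 arrays, with open circles for medium and filled circles for IL-4. Lines join the arrays of a genotype, wild type in orange and Stat6-/- in blue, and the dotted line is the floor at 2.52. Retnla, Arg1, Mgl2 and Ccl24 separate widely in wild type and hardly in Stat6-/-, while Mmp12, Fabp5, Ccl8 and Itga9 separate in Stat6-/- too.

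Mmp12, the macrophage elastase that digests elastin, went from 6.41 to 7.85, a 2.71-fold rise, with 9.56 and 10.73 in wild type. The Stat6-/- array with IL-4 thus stayed below both wild-type arrays. Atp6v0d2, a subunit of the vacuolar proton pump found in osteoclasts and macrophages, went from 5.56 to 6.74 (2.26-fold) and again stayed under both wild-type values of 7.87 and 8.30. Of the 16 proton pump genes above the floor it was the only member past 1.5-fold, and the others lay between -0.24 and 0.49. Ccl8, a chemokine for monocytes and lymphocytes, went from 2.63, close to the floor, to 3.79 (2.24-fold), and the wild-type difference was 1.34. Penk, which encodes the precursor of enkephalins, went from 2.49 to 3.59, at least 2.09-fold, where wild type went from 5.96 to 8.23. Atp6v0d2 is also among the 10 osteoclast markers, whose summed log2 signal was 7.21 and 7.69. Their part in the result was not tested.

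Fabp5, a carrier of fatty acids, went from 6.88 to 7.91 in Stat6-/- (2.05-fold), and in wild type from 7.71 to 6.94, the opposite direction. A second probeset of Fabp5 gave 6.90 and 7.90, a difference of 0.997. Ddit3, which encodes the stress-induced transcription factor CHOP, went from 3.84 to 5.08 (2.36-fold). Of 23 genes that respond to unfolded protein or amino acid shortage, 2 rose at least 1.5-fold, Ddit3 and Nupr1 (0.60), 1 fell, the serine-synthesis enzyme Psph (-0.75), and the median was 0.04. With the trend of the difference with signal removed, 4 rose, 1 fell and the median was 0.13. With the trend with gene length removed as well, 2 rose, 2 fell and the median was 0.04. After another quantile normalization, 3 rose, 2 fell and the median was 0.08. Glrx3, a glutaredoxin that handles iron-sulphur clusters, had the largest rise of all called genes, from 2.84 to 4.63 (3.47-fold), while both wild-type arrays were at 2.93 and 3.11. Of 17 genes of oxidative stress and thiol redox, Glrx (0.76) was the only other past 1.5-fold. Dnajb6, a cochaperone, went from 2.30 to 3.52, at least 1.99-fold, while in the heat shock list Hspa1a (-0.80) and Hsph1 (-0.65) fell at least 1.5-fold. The other genes that rose had low signals: Prp2 (3.28 and 4.45), Thap3 (3.40 and 4.46), Med29, a subunit of the Mediator complex (2.01 and 3.15, at least 1.55-fold), Zfat (2.40 and 3.50, at least 1.97-fold), the immunophilin Fkbp3 (2.29 and 3.29, at least 1.70-fold), Wfdc15a (1.58 and 2.72, at least 1.14-fold) and the predicted gene Gm10024 (1.80 and 2.93, at least 1.33-fold).

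To show the sequence in front of genes that moved without Stat6, and of a gene that did not, the 250 bases before the annotated start of Mmp12 (2 starts), Ccl8 and Retnla are printed 5′ to 3′ from the RefSeq promoter table of build GRCm38.p6. Capitals mark matches on either strand to 5 short motifs: the Stat6 element, TTC and GAA with 4 bases between them, the shorter STAT element TTCNNNGAA, the AP-1 element TGANTCA, the E-box CACGTG and the C/EBP-ATF element TGATGNAA, where N is any base.

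Mmp12, first start (chr9:7344147-7344396, plus strand): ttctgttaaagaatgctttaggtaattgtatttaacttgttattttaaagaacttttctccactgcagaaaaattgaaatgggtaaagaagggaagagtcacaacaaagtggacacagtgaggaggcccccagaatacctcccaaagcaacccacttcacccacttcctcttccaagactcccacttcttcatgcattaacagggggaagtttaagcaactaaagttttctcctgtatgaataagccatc

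Mmp12, second start (chr9:7347124-7347373, plus strand): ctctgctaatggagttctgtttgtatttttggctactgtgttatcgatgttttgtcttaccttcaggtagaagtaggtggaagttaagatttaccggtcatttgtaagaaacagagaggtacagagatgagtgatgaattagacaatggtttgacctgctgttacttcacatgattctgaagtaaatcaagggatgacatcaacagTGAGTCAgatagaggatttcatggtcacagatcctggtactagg

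Ccl8 (chr11:82114935-82115184, plus strand): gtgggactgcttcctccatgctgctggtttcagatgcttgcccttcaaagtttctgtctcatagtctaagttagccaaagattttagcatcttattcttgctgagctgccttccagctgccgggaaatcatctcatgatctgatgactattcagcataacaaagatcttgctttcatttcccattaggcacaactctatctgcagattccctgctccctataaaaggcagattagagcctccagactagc

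Retnla (chr16:48842359-48842608, plus strand): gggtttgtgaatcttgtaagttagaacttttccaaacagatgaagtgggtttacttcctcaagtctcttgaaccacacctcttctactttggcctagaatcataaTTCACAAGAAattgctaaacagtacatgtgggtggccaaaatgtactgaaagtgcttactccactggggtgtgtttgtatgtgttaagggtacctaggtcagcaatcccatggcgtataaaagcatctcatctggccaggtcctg

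The second Mmp12 window held an AP-1 element at position -44 from the start, the Retnla window a Stat6 element at -145, and the first Mmp12 window and that of Ccl8 none of the 5. Of the 37 genes past the 2-fold rule, 26 had a promoter in the table, with 30 windows. The Stat6 element stood in 0 of 16 windows of genes that rose and in 2 of 14 of those that fell, against 4.47% of the windows of genes at or above the floor, 5.85% of all 32851 windows and 7.89% of the windows of genes that rose in wild type. Among the larger sets called at 1.5-fold in Stat6-/-, it stood in 5.32% of windows of genes that rose and 4.70% of those that fell. The AP-1 element was in 4.94% and 2.01% of these, the E-box in 9.89% and 8.72%, the STAT element in 4.56% and 4.36%, and the C/EBP-ATF element in 1.90% and 2.01%. Over the windows of genes at or above the floor these 4 were at 4.39%, 8.58%, 5.80% and 2.02%, and over all windows at 6.75%, 6.02%, 7.02% and 3.45%. Past 2-fold, the AP-1 element stood in 2 of the 16 windows of genes that rose and 0 of the 14 of those that fell. The E-box stood in 1 and 0 of these, the STAT element in 1 and 1, and the C/EBP-ATF element in 0 and 0. A match describes letters in this window and not a bound site.

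Among the genes that fell, Itga9, an integrin chain, went from 5.55 to 4.29 in Stat6-/- (2.39-fold) and from 5.62 to 2.25 in wild type. Tns1, which links integrins to actin, went from 5.48 to 3.84 in the probeset used. Its 5 other probesets gave differences between -0.54 and 0.16, so that the fall of Tns1 rests on 1 of 6 probesets, and the mean over them differed by -0.41. In the list of focal adhesion and integrin genes, 4 of 27 fell at least 1.5-fold (14.8%, against 2.79% of all genes). They were Tns1, Itga9, Itgal (-0.74) and Itga4 (-0.60), and 1 rose, Itgax (0.78), the CD11c chain. The list median was -0.12. Enpp4, an ectonucleotide enzyme of the cell surface, went from 4.76 to 3.71, and Pilrb1, an activating paired receptor, from 4.85 to 3.82, with 4.85 and 3.83 in wild type, nearly the same values. Cx3cr1, the fractalkine receptor of monocytes and macrophages, was just under the rule at -0.99, from 5.30 to 4.31, and went from 5.84 to 4.03 in wild type.

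The largest fall was that of Usp17ld, a deubiquitinase from a family of near-identical copies, from 4.63 to 2.67. The other genes that fell were the predicted genes Gm15455 (5.08 and 3.89) and Gm10602 (3.71 and 2.52, at least 2.27-fold), Ppp2r3c, a regulatory phosphatase subunit (5.20 and 4.08), the opsin Opn3 (4.22 and 3.18), Tgfbrap1 (5.06 and 4.05), which binds TGF-beta receptors, the xylosyltransferase Gxylt1 (4.38 and 3.38), and Lyrm9, which went from 2.72 to under the floor, at least 1.15-fold. The other 3 members of the Usp17l family were under the floor. Of 16 genes of TGF-beta receptors and mediators, Tgfbrap1 was the only member past 1.5-fold. In the range just under the rule stood, on the lower side, Macrod2, Krtap5-1, Zfp709, Snx25, Zadh2, Prkd3, Alg9, Teddm1b and Polr2c beside Cx3cr1, down to -0.95. On the higher side stood Snord15b, Olfr91, Xpnpep3, Crip1, Snora23, Rilpl2, Tmem213, Cd300lf, Snora16a and Rps28, down to 0.95. Of these, Zfp709, Teddm1b, Olfr91 and Xpnpep3 had 1 signal under the floor. Olfr91 is an olfactory receptor gene. Among the 19 olfactory receptor genes above the floor, 1 rose and 1 fell at least 1.5-fold (5.26% each), with a median of -0.08.

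Of 34 small nucleolar and small Cajal body RNAs above the floor, which guide the chemical modification of ribosomal and spliceosomal RNA, 13 rose at least 1.5-fold (38.2%, against 2.94% of all genes) and 0 fell. Snord47, counted among those that rose, reached the floor only with IL-4 (2.02 and 2.70). Past 2-fold were Snord16a (4.23 and 5.66), Snord57 (7.17 and 8.25), Snord33 (4.88 and 5.94) and Snord15a (4.74 and 5.76). The list median was 0.33 against -0.05 for all genes, and it was 0.21 in wild type. Rny1, a Y RNA bound by the Ro60 protein, went from 4.18 to 5.95 (3.42-fold), with 4.02 and 4.97 in wild type, and Rny3 from 9.43 to 10.08. Vaultrc5, a vault RNA, went from 6.99 to 8.18 and was at 6.54 and 6.49 in wild type. Rn7sk, an abundant regulator of transcription elongation, was at 11.51 and 11.49. Ro60 itself, chosen after its values were seen, was lower at least 1.5-fold, from 5.07 to 4.18 in Stat6-/- and from 5.01 to 3.88 in wild type.

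Most small nucleolar RNAs are cut from introns of other genes. For 18 of them, the gene whose annotated span holds them was also above the floor, 16 genes in all. The small RNA had the higher difference in 16 of 18 pairs, with a median of 0.57 against 0.12 for the holding gene, and 9 of the small RNAs but 0 of the 16 genes passed 1.5-fold. Snord47 (2.02 and 2.70), which is among the 9, and Snora21 (2.35 and 2.87) entered only through the IL-4 array, since their medium signals were under the floor. Snord16a differed by 1.43 and Rpl4, which holds it, by -0.12. Snord15a and Snord15b, at 1.02 and 0.99, lie in the same gene, Rps3, which differed by 0.12. Snora23 was at 0.97 and Ipo7, a nuclear import receptor, at -0.20. In wild type the corresponding medians were 0.26 and 0.01.

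**Figure D3:**
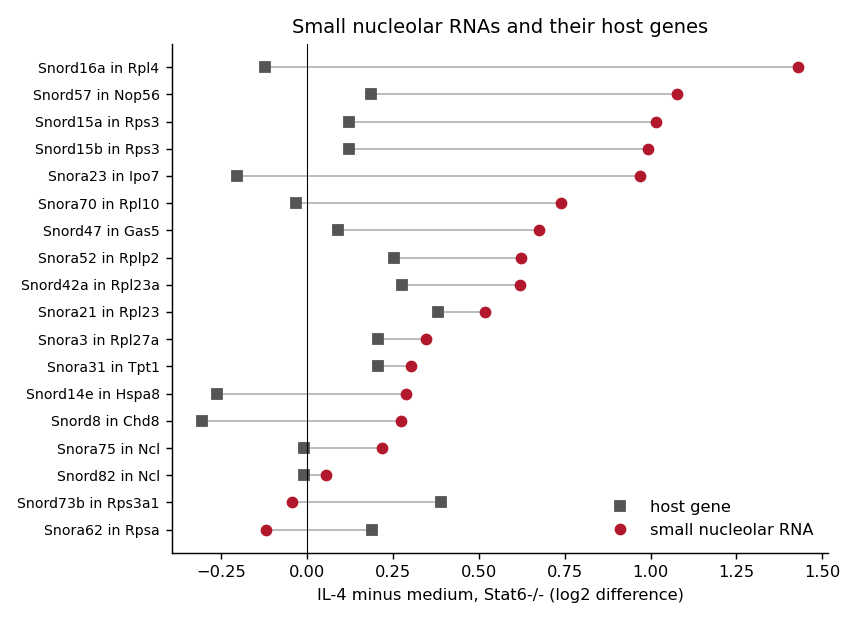
IL-4 minus medium in Stat6-/- macrophages (log2 difference) for 18 small nucleolar RNAs (red circles) and the genes whose span holds them (grey squares), ordered by the small RNA. The circle lies to the right of the square in 16 of 18 pairs, and all squares lie between -0.31 and 0.39.

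The lists of ribosome, respiratory chain and histone genes leaned the same way. Of 52 cytosolic ribosome protein genes, 11 rose at least 1.5-fold (21.2%) and 0 fell, with 44 of 52 positive and a median of 0.28. Rps28 (0.95), Rpl37a (0.86), Rps29 (0.71) and Rpl12 (0.71) led, and Rps6 was the lowest at -0.32. Of 77 genes named for respiratory chain and ATP synthase subunits or their assembly factors, 7 rose at least 1.5-fold (9.09%) and 0 fell, with a median of 0.23. Atp5e went from 5.41 to 6.55 and Atp5l, both subunits of ATP synthase, from 5.72 to 6.78. All 6 probesets of Atp5l were higher with IL-4, by 0.77 to 1.25, though copies of this gene may be read together. In wild type 48 of 77 of this list rose at least 1.5-fold, with a median of 0.73. Of 77 mitochondrial ribosome protein genes, 4 rose at least 1.5-fold (5.19%) and 1 fell (1.30%), with a median of 0.12. Mrps10 (1.03, at least 2.03-fold), Mrps34 (0.87) and Mrpl28 (0.78) were among those that rose, and Mrps26 fell (-0.80). Of 27 histone genes, 5 rose at least 1.5-fold (18.5%, against 2.94% of all genes) and 0 fell, led by H2bc14 (1.19), H2az2 (0.91), H2bc4 (0.85) and H4c6 (0.78). The histone median was 0.22, and -0.12 in wild type, where 0 rose and 1 fell.

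The differences also went with the length of genes. The 10391 genes with a known genomic span were divided by span into 5 classes of like size, and the median difference in Stat6-/- went from 0.05 in the shortest class (median span 3.60 kb) through -0.00, -0.04 and -0.10 to -0.11 in the longest (median span 104 kb). At 1.5-fold, 133 genes rose and 49 fell in the shortest class, and 30 rose and 81 fell in the longest. The same order was present in wild type, from 0.10 to -0.29. When trends with signal and span were both removed, an alternative added after seeing the data, 12 small nucleolar RNAs, 11 cytosolic ribosome protein genes and 8 respiratory chain genes rose at least 1.5-fold, with medians of 0.27, 0.26 and 0.24 against -0.00 for all genes. Of the histone genes, 4 rose, with a median of 0.16. The span is that of the gene and not of its transcript, and RNA quality was not measured in the files, so its part in the result was not tested.

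**Figure D4:**
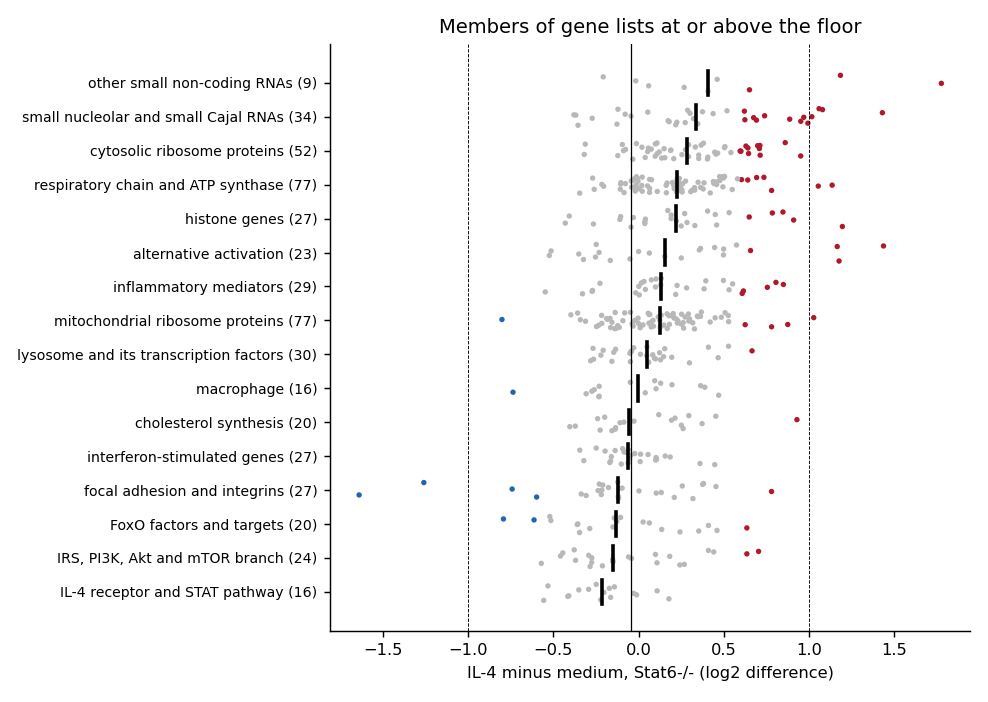
IL-4 minus medium in Stat6-/- macrophages (log2 difference) for members of 16 gene lists at or above the floor, with their number in brackets. Thick bars are list medians, the thin line is the median of all genes (-0.05), and red and blue points passed 1.5-fold. The lists of small RNAs, ribosome and respiratory chain genes sit to the right and the IL-4 receptor and STAT list to the left.

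Of 29 inflammatory mediators above the floor, 5 rose at least 1.5-fold (17.2%) and 0 fell, and 23 were positive, with a median of 0.13. They were the chemokines Ccl2 (0.85), Ccl7 (3.44 and 4.05) and Ccl3 (8.16 and 8.78), the scavenger receptor Marco (2.34 and 3.14, at least 1.54-fold) and the acute-phase protein Saa3 (7.94 and 8.69). Tnf (0.53), Cxcl2 (0.55) and Ccl4 (0.50) were just under the bar, and Il1b did not differ, at 7.31 on both arrays. In wild type 14 of 28 fell at least 1.5-fold and 5 rose. Of 23 alternative activation genes above the floor in Stat6-/-, 4 rose at least 1.5-fold (17.4%, against 2.94% of all genes) and 0 fell. Those that rose were Mmp12, Atp6v0d2, Ccl8 and the transcription factor Batf3 (3.12 and 3.78). The alternative activation list was written with earlier results of these data known, so its count is no independent evidence. Of 18 matrix proteases and inhibitors, Mmp12, Plau (0.74), the urokinase activator of plasminogen, and Mmp27 (0.62) rose at least 1.5-fold, and Mmp9 fell by that rule (-0.92, from 4.70 to 3.77), where wild type went up from 6.01 to 8.74.

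Interferon-stimulated genes, 24 of 27 of which fell at least 1.5-fold in wild type, had 0 of 27 past it in Stat6-/- in either direction, with a range of -0.34 to 0.45. Cholesterol synthesis had 1 of 20, Pmvk (2.67 and 3.59), where wild type had 17 of 20 higher. Glycolysis (17 genes), MHC class II presentation (6 genes) and arginine and polyamine metabolism (10 genes) had 0 past 1.5-fold. Of 30 lysosome genes and their transcription factors, Ctsk, a collagen-digesting cathepsin, was the only member called (0.67), but its medium signal was under the floor and the rise was at least 1.11-fold. Of 27 cell cycle genes, Ccnd1 (4.96 and 5.88), a cyclin of the start of the cycle, and Mcm6 (0.71), a helicase subunit, rose at least 1.5-fold. Of 24 immediate early genes, Btg2 (-0.67) was called. Of 22 genes of lipid receptors and fatty acid handling, Fabp5 rose and Fasn, the fatty acid synthase, fell at least 1.5-fold (-0.64, with 1.46 in wild type). Of 14 fusion genes, Cd9 (7.19 and 7.97) and Atp6v0d2 rose and Mmp9 fell at least 1.5-fold.

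Of 72 microRNA genes above the floor, 5 rose and 3 fell at least 1.5-fold (6.94% and 4.17%, against 2.94% and 2.79% of all genes), with a median of -0.06. The called members had low signals, among them Mirlet7i (2.85 and 3.60), Mirlet7d (2.65 and 1.96, at least 1.09-fold), Mir431 (3.18 and 2.45, at least 1.58-fold) and Mir124a-2 (1.79 and 2.63, at least 1.08-fold), and their probesets read the gene and not the mature microRNA.

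Genes called at 1.5-fold in both genotypes were counted next. Of the 306 that rose in Stat6-/-, 89 also rose in wild type, 29.1% of the first list and 9.56% of the 931 in the second, where 9.05% of all genes rose in wild type. Of the 290 that fell in Stat6-/-, 94 also fell in wild type, 32.4% of the first list and 4.76% of the 1976 in the second, where 19.2% of all genes fell. In the opposite directions, 27 rose in Stat6-/- and fell in wild type, 8.82% of the 306, where 19.2% of all genes fell in wild type. Another 20 fell in Stat6-/- and rose in wild type, 6.90% of the 290, where 9.05% of all genes rose. Both shares were under those of all genes. Shared rises included S100a4 (4.25 and 5.12 in Stat6-/-) and S100a6 (5.73 and 6.52), small calcium-binding proteins, and Crip1 (7.26 and 8.24). Shared falls included Clmp (7.04 and 6.25), a cell adhesion protein, Adgre4 (7.33 and 6.64), and Glul (9.10 and 8.29), the glutamine synthetase. S100a4, S100a6 and Glul were chosen after their values were seen.

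Among the 27 that rose in Stat6-/- and fell in wild type, Saa3 fell from 8.83 to 6.57 in wild type while it was higher with IL-4 in Stat6-/-. Hal, which breaks down histidine, went from 5.52 to 6.33 in Stat6-/- and from 6.07 to 3.34 in wild type. Hpgds, a prostaglandin D synthase, went from 6.39 to 7.11 in Stat6-/- and from 6.97 to 4.41 in wild type. Hal and Hpgds were chosen after their values were seen. The difference between the genotypes was not tested for any of these, since each value rests on 1 array.

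**Figure D5:**
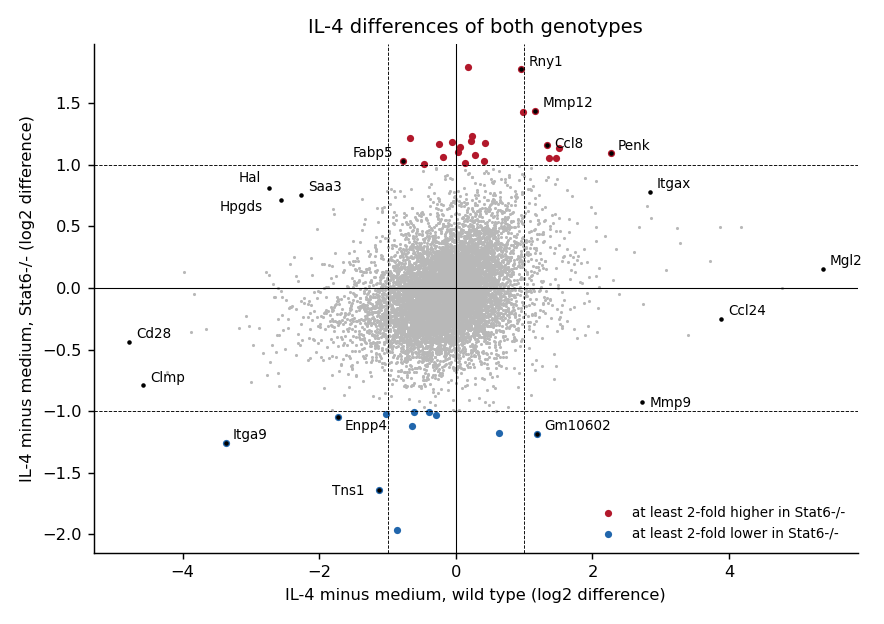
IL-4 minus medium in Stat6-/- (vertical axis) against the same difference in wild type (horizontal axis), both log2, for genes at or above the floor in both pairs of arrays. Red and blue points passed 2-fold in Stat6-/- (dashed lines mark 2-fold), and the wide horizontal and narrow vertical spread shows the smaller Stat6-/- differences.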

How the data were processed

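RNA of sorted mouse macrophages was labelled with biotin (200 ng per array) and hybridised to 4 Affymetrix whole-transcript arrays, 1 per group. The authors deposited log2 values, made with RMA in Affymetrix Expression Console per the submitters' processing notes. Base 2 was inferred from how far the values reach. Software versions, settings and the genome build were not given in the sources used here. RMA pulls low signals together and so understates differences of weakly expressed genes. Of 35557 probesets, the platform annotation gave 1 symbol for 21789, several for 1621 and none for 12147. Genes were named from the first class, with the probeset of the highest mean over 4 arrays per gene. Symbols were checked by Entrez identifier in a RefSeq table of GRCm38.p6, which matched 21698 and changed 0.

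Differences were IL-4 minus medium within a genotype. Calls use the measured difference. A fold of a gene with 1 signal under the floor is given against the floor as "at least", and can be smaller than the rule. Named genes were all those past 2-fold in Stat6-/- and the 10 nearest under it each way. Further sets were up to 4 members per list with the largest differences past 1.5-fold, and Stat6 with core IL-4 genes. The last set was the 10 largest changes each way in wild type. The text gives these further sets only in part. Other genes in the text, such as Il13ra1, Jak1, Tyk2, Foxo1, Foxo4, Tnf, Cxcl2, Ccl4, Il1b, Rn7sk, Rps6, Timd4, Klrk1, Prf1 and the genes that hold small RNAs, were chosen after their values were seen. The comparison, 22 pathway lists, 11 marker lists and 10 lists by name pattern were chosen with earlier results of these data known. Of 650 list entries, 597 matched a gene. Nothing was tested between groups, and the number of arrays limits precision. The 2-fold rule was tested on simulated data, with changes larger than the rule in genes well above the floor. That test does not gauge calls near the floor or at 1.5-fold. Alternatives were another quantile normalization, a shift to one median, removal of trends by lowess (fraction 0.3), other floors and the mean over probesets. Python 3.11.15, pandas 2.3.3 and statsmodels 0.14.6 were used.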

Additional observations from a re-analysis of the deposited data

Results flagged for a closer look

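Gm10602, a predicted non-coding gene, passed the 2-fold rule in both genotypes in opposite directions. It went from 3.71 to 2.52 in Stat6-/- (-1.18) and from 2.34 to 3.53 in wild type, and the difference between the genotypes was not tested.

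Probesets that the gene comparison leaves out also held differences. Of 790 probesets above the floor that carry several gene symbols, 9 were at least 2-fold higher with IL-4 in Stat6-/- cells and 0 lower, 1.14%, while 12 were higher and 36 lower in wild type. Of 4879 probesets above the floor with no symbol in the annotation, 327 were higher and 456 lower in Stat6-/-. Of 11432 probesets with 1 symbol, 34 were higher and 18 lower, 0.455%. The standard deviation of the difference in Stat6-/- was 0.73 over probesets with no symbol and 0.31 over those with 1. What these probesets read is not given in the annotation used here.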

How the results depend on the processing

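A floor at the 75th percentile (4.65) left 5065 genes and 20 past 2-fold, 13 higher and 7 lower, and 245 past 1.5-fold, 118 higher and 127 lower. Under the other 7 alternatives each of these counts stayed within 1.5 times its value, from 30 to 45 genes past 2-fold, and no gene past 2-fold changed sign under any of the 8. Of the 37 genes, 17 passed under all 8, among them Mmp12, Atp6v0d2, Fabp5, Ddit3, Itga9, Rny1 and 4 small nucleolar RNAs. Fkbp3 and Gxylt1 passed under 4 of 8. Tns1 was lost (-0.41) when its probesets were averaged. Of 248 list medians recomputed, 17 moved by 0.1 or more. Counts of small lists moved too: with the signal trend removed, 2 proton pump genes and 2 immediate early genes rose at least 1.5-fold, against 1 and 0, and with the span trend removed as well, 3 lysosome genes and 2 microRNA genes, against 1 and 5. The median of alternative activation became 0.03 with no floor, and -0.08 with the higher floor. The median of small nucleolar RNAs became 0.92 with the higher floor and 0 with signals raised to the floor, which equalises genes under it. The higher floor left fewer of these RNAs. Some of them, such as Snord16a (4.23 and 5.66) and Snord22 (4.50 and 5.38), reached it only with IL-4. That choice favours members that rose, so the value of 0.92 does not gauge the strongly expressed ones. No paired analysis was possible because each group has 1 array, and no array could be left out.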
